A study of Arabidopsis thaliana with 18 samples.

Results

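The comparison described here set WS roots grown on plates tilted forward against WS roots grown on upright plates. Its members were chosen by the array titles: 3 arrays of WS seedlings slanted forward by 45°, which is an angle of the growth plate (Agp) of 135°, and 3 arrays of WS seedlings kept vertical (Agp 90°), making 6 of the 18 arrays of the series. Both groups were light-grown WS seedlings of the Wassilewskija ecotype, 8 days old and with no transgene or mutation named. The WS Agp 135° seedlings had spent 3 days upright and then 5 days tilted forward, and the WS Agp 90° seedlings had been upright for all 8 days. The other 12 arrays held WS at Agp 45° (tilted backward) and the Columbia ecotype Col-0 at the same 3 angles, and they entered the model as further groups. Each array carried RNA pooled from 5 roots. No source used here says whether the arrays of a group came from separate plates or cultures, so the p-values measure the spread between arrays, which may be technical.

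A root that meets a hard tilted surface can deviate steadily to one side, which is called skewing, or can oscillate from side to side, which is called waving. Gravity sensing, touch, and the organisation of cortical microtubules and cell walls in the elongating cells are all known to alter these patterns. WS is an ecotype that skews strongly while Col-0 skews little, and a forward tilt was used as a condition in which WS roots skew with little waving. Within WS, skewing and the forward tilt came together, so transcripts that accompany skewing and those that respond to the tilt itself cannot be told apart.

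Transcripts were measured as MAS5 signals on Affymetrix ATH1 arrays, in which a probe set is a group of short probes to one transcript. Median signals of the 18 arrays were 193 to 208. Across probe sets, which do not count as replicates, Pearson's r was 0.989 to 0.990 among the WS Agp 135° arrays, 0.988 to 0.991 among the WS Agp 90° arrays and 0.984 to 0.990 between the groups. The actin control, whose 3′ probe set gains over the 5′ one as RNA degrades, had a 3′ over 5′ ratio of 4.12, 4.19 and 4.10 on the WS Agp 135° arrays and 4.26, 4.53 and 6.05 on the WS Agp 90° arrays. WS Agp 90° replicate 3 therefore stood apart by this control, and results are also given without it. The same ratio of the GAPDH control was 2.47, 2.55 and 2.69 on the WS Agp 135° arrays and 2.43, 2.34 and 2.82 on the WS Agp 90° arrays.

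The forward tilt moved few transcripts past a test over the whole array. In limma's fit 12 of 22746 probe sets (0.0528%) had a Benjamini-Hochberg adjusted p under 0.05, with 7 higher and 5 lower at Agp 135°, and the smallest adjusted p was 0.0317. Of these, 6 (0.0264%) also had a log2 fold change over 1 in size, and 5 of the 6 were higher. At the looser threshold of a log2 fold change over 1 in size and an unadjusted p under 0.05, 28 probe sets were higher (0.123%) and 11 were lower (0.0484%), or 39 in all (0.171%). With an unadjusted p under 0.05 at any fold change, 1171 were higher (5.15%) and 1242 were lower (5.46%). The 3 Agp 135° arrays lay wholly above the 3 Agp 90° arrays in 1840 probe sets (8.09%) and wholly below them in 1858 (8.17%).

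The counts by adjusted p depended on each array. The 12 became 2, 7 and 0 when WS Agp 135° replicate 1, 2 or 3 was left out, and 4, 0 and 0 when WS Agp 90° replicate 1, 2 or 3 was left out. The 6 became 2, 3 and 0, and then 0, 0 and 0, in the same order. At the looser threshold the 39 became 64 without WS Agp 90° replicate 1, and the split of 28 higher and 11 lower became 24 and 22 without WS Agp 135° replicate 1, 26 and 25 without WS Agp 135° replicate 3, and 247 and 243 with a pseudocount of 1 in place of 32. The words rose and fell are used below only for an adjusted p under 0.05 in the fit to all 18 arrays, and log2 fold changes are on the log2(signal + 32) scale, which understates the change of a signal near or below 32.

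**Figure D1:**
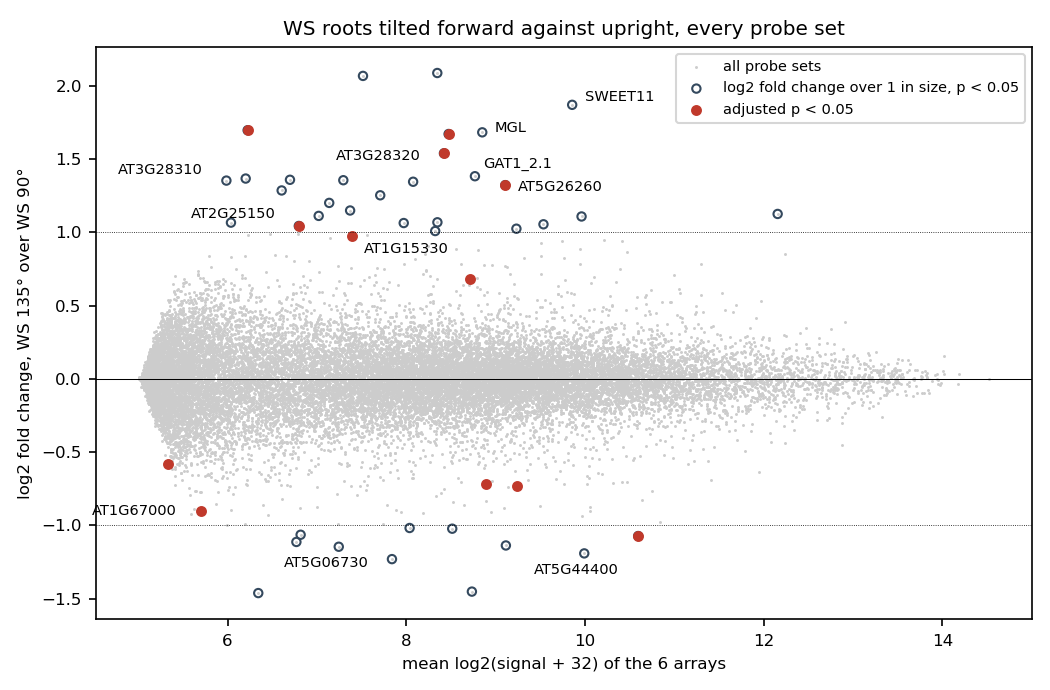
Each point is 1 of the 22746 probe sets, with its mean log2(signal + 32) over the 6 arrays on the x axis and its log2 fold change, WS Agp 135° over WS Agp 90°, on the y axis. The 39 probe sets past the looser threshold are ringed and the 12 with an adjusted p under 0.05 are filled, and more of the ringed points lie above 0 (28) than below it (11).

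A single gene name was available for 13513 of the probe sets. Of the 28 higher and 11 lower probe sets at the looser threshold, 12 and 4 were named, and of the 7 and 5 by adjusted p, 4 and 2 were named. The unnamed probe sets past the looser threshold lay between 1.06 and 2.09 for the 16 higher and between -1.46 and -1.02 for the 7 lower ones.

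Among the 4 named genes that rose, the largest fold change was that of AT3G28320, one of a row of neighbouring genes for AT14A-like proteins with the domain of unknown function DUF677. Its signal was 528, 684 and 458 on the WS Agp 135° arrays and 196, 184 and 130 on the WS Agp 90° arrays. Every Agp 135° array was above every Agp 90° array, and AT3G28320 rose by a log2 fold change of 1.54 ± 0.25 (standard error, as for every log2 fold change below; limma adjusted p = 0.0371). In RNA from whole roots, more RNA per cell and more cells of a type that holds a transcript cannot be told apart.

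The adjacent AT14A-like gene, AT3G28310, had signals of 54.1, 84.4 and 83.4 at WS Agp 135° and of 3.24, 18 and 3.88 at WS Agp 90°. The groups did not overlap, although the upright arrays were below the pseudocount, and the log2 fold change was 1.35 ± 0.25 with a limma adjusted p of 0.0677. Further members of the row, AT3G28270 and AT3G28280, had log2 fold changes of 0.04 and -0.00. The 4 AT14A-like probe sets thus held 1 that rose and 3 that did not pass the test.

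Another 3 named genes rose. AT5G26260, a gene of the TRAF-like family, had signals of 691, 1003 and 822 at WS Agp 135°, against 386, 381 and 205 at WS Agp 90°. All tilted arrays were above all upright ones, with a log2 fold change of 1.32 ± 0.21 (limma adjusted p = 0.0371).

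AT2G25150 encodes an acyltransferase of the HXXXD family, which joins coumaroyl groups to the polyamine spermidine in roots. It had signals of 121, 124 and 146 at WS Agp 135° and 52.6, 37.8 and 49.9 at WS Agp 90°, so the groups were well separated and the arrays of each group lay close together. Its log2 fold change was 1.04 ± 0.15 (limma adjusted p = 0.0371). AT1G15330, for a protein with a CBS domain, had signals of 222, 180 and 213 at WS Agp 135° and 94.1, 90.5 and 80.4 at WS Agp 90°, with no overlap. It rose by a log2 fold change of 0.98 ± 0.16 (limma adjusted p = 0.0404).

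None of these calls held when any 1 of the 6 arrays was left out. The limma adjusted p was then 0.0536 to 0.152 for AT3G28320, 0.0507 to 0.144 for AT5G26260, 0.0507 to 0.125 for AT2G25150 and 0.0604 to 0.173 for AT1G15330. Their log2 fold changes stayed above 0 in each of those fits, and AT3G28320, AT5G26260 and AT2G25150 are among the genes that the study itself lists for this comparison, so their direction here is not independent evidence.

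**Figure D2:**
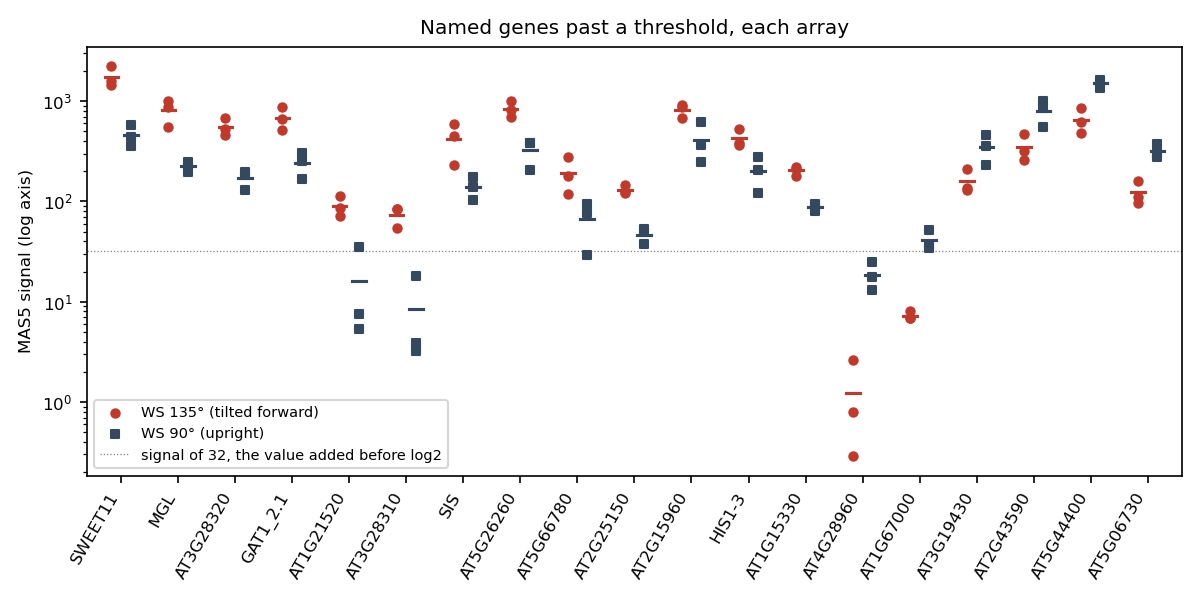
MAS5 signal on a log axis for the 19 named genes past either threshold, with 1 point per array, WS Agp 135° left of WS Agp 90° for each gene, and short lines at the group means. The groups do not overlap for any gene shown, and the upright arrays of AT3G28310, the tilted arrays of AT1G67000 and all arrays of AT4G28960 lie below the dotted line at a signal of 32.

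The named gene with the largest fold change of all was the sugar transporter gene SWEET11, which did not pass the adjusted test. SWEET proteins let sugars leave cells down their gradient, and SWEET11 exports sucrose on the way to the phloem in leaves. Its signal was 2218, 1599 and 1438 at WS Agp 135° and 576, 353 and 444 at WS Agp 90°, or 1752 ± 412 and 458 ± 112 (SD, n = 3 each). The groups did not overlap, and the log2 fold change was 1.87 ± 0.58 with a limma adjusted p of 0.247. The error of the model pools the spread of all groups, and SWEET11 varied widely in Col-0, with signals of 169, 160 and 860 at Agp 135° and 438, 815 and 102 at Agp 90°. With only the WS Agp 135° and Agp 90° arrays in the fit its limma adjusted p was 0.243. In that smaller fit 0 probe sets of the whole array passed the adjusted test, so the 2 values cannot show what the Col-0 spread did.

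Of the 14 named probe sets in the list of sugar transport and cleavage, all of them SWEET genes, 9 had a log2 fold change above 0 and 5 below, with a median of 0.20 against -0.00 over all probe sets. None passed the adjusted test. SWEET3, another member of the family, had signals of 338, 155 and 213 at WS Agp 135° and 137, 93.2 and 146 at WS Agp 90°, a log2 fold change of 0.71 ± 0.25. SWEET2, which loads sugar into root vacuoles, had 150, 129 and 150 at WS Agp 135° and 97.3, 99.9 and 118 at WS Agp 90°, a log2 fold change of 0.33 ± 0.14. SWEET11, SWEET3 and SWEET2 were the 3 of 14 that were higher with an unadjusted p under 0.05, as 5.15% of all probe sets were. Those 3, SWEET10 and SWEET1 were the 5 of 14 whose WS Agp 135° arrays lay wholly above, as 8.09% of all probe sets did. SWEET10 and SWEET1 had log2 fold changes of 0.35 ± 0.28 and 0.19 ± 0.13. SWEET9, a nectary transporter that was dim here, had 15.6, 35.2 and 15 at WS Agp 135° and 47.9, 20.4 and 70.5 at WS Agp 90°, and its groups overlapped.

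Among genes known to be induced when sugar runs out or light is withdrawn, none passed the adjusted test, and most but not all of the probe sets read lay higher on every WS Agp 135° array than on any WS Agp 90° array. When carbohydrate is short, plant cells break down protein and take energy from amino acids, above all the branched-chain ones, under the control of the kinase SnRK1. The 31 genes of this list had 11 named probe sets for 10 genes. All 11 had a log2 fold change above 0, 4 of them by 0.01 to 0.12, with a median of 0.51 against -0.00 over all probe sets. In 7 of the 11 the WS Agp 135° arrays lay wholly above (8.09% of all probe sets) and the unadjusted p was under 0.05 (5.15% of all were higher at that p), and 0 of 11 had an adjusted p under 0.05 (the smallest was 0.124). This list was written with earlier results of these data known, so its counts and median are not independent evidence. MGL, GAT1_2.1 and AT4G27450 on it are also among the genes the study lists for this comparison.

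MGL, the methionine gamma-lyase that splits methionine, had signals of 1004, 558 and 870 at WS Agp 135° and 248, 225 and 198 at WS Agp 90°. Its log2 fold change was 1.68 ± 0.45 (limma adjusted p = 0.180). All 3 tilted arrays were above every upright array, and replicate 2 was the lowest of the tilted ones. GAT1_2.1, a class I glutamine amidotransferase, had 873, 510 and 661 at WS Agp 135° and 307, 255 and 167 at WS Agp 90°, a log2 fold change of 1.38 ± 0.31 (limma adjusted p = 0.124). A dimmer probe set for GAT1_2.1 gave a log2 fold change of 0.12. AT4G27450, for an aluminium-induced protein with YGL and LRDR motifs, had 1169, 816 and 920 at WS Agp 135° and 594, 407 and 487 at WS Agp 90°, with no overlap and a log2 fold change of 0.93 ± 0.28.

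The enzymes of leucine breakdown had smaller differences. IVD, isovaleryl-CoA dehydrogenase, had signals of 1071, 967 and 941 at WS Agp 135° and 739, 643 and 527 at WS Agp 90°, a log2 fold change of 0.63 ± 0.18. MCCA and MCCB are the subunits of methylcrotonyl-CoA carboxylase, which acts on the product of IVD. MCCA had 1260, 1013 and 1064 at WS Agp 135° and 721, 758 and 730 at WS Agp 90°, and MCCB had 1433, 1288 and 1298 at WS Agp 135° and 1068, 1184 and 910 at WS Agp 90°. Their log2 fold changes were 0.58 ± 0.17 and 0.35 ± 0.10, and for both the groups did not overlap. AKINBETA1, a regulatory subunit of SnRK1, had 1173, 998 and 1027 at WS Agp 135° and 767, 765 and 712 at WS Agp 90°, a log2 fold change of 0.51 ± 0.13. The limma adjusted p of these 4 genes was 0.171 to 0.228.

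Other members of the list differed less, with overlapping groups. BZIP53, a transcription factor of the starvation response, had 2144, 2298 and 2468 at WS Agp 135° and 2179, 2173 and 2467 at WS Agp 90°. D2HGDH and ETFQO, which pass electrons from amino acid breakdown to the respiratory chain, had log2 fold changes of 0.03 ± 0.10 and 0.01 ± 0.15, and their groups overlapped. D2HGDH turned to -0.0247 without the 2 arrays of the highest actin ratio. In the list of branched-chain aminotransferases and dehydrogenases, which holds IVD, MCCA and MCCB too, 7 probe sets had a median of 0.23. Its lowest member was BCAT4, an aminotransferase that acts in glucosinolate synthesis rather than in leucine breakdown, with 3004, 3023 and 3440 at WS Agp 135° and 4028, 4938 and 6161 at WS Agp 90° (log2 fold change -0.63 ± 0.15, limma adjusted p = 0.160).

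**Figure D3:**
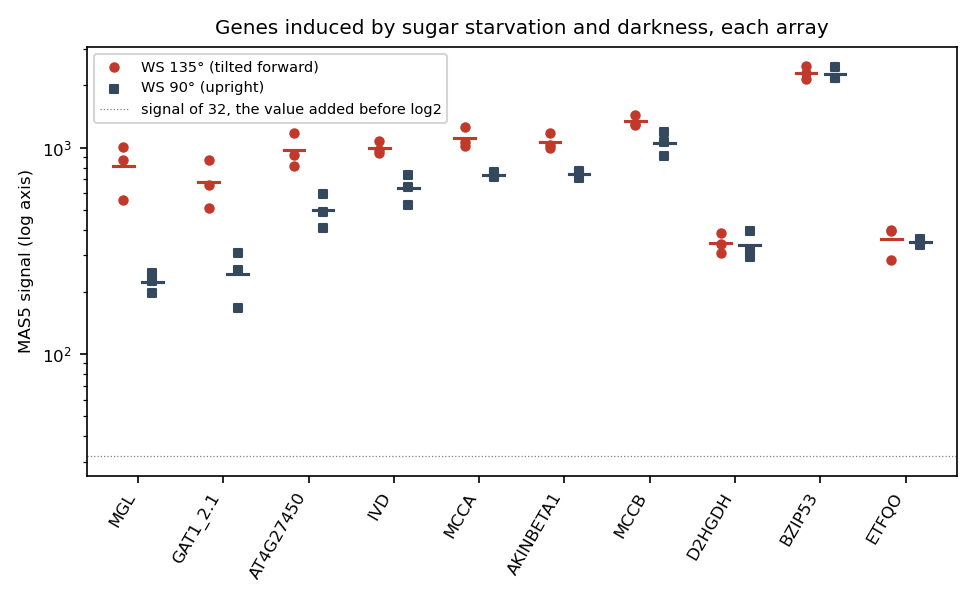
MAS5 signal on a log axis of the 10 named genes induced by sugar starvation and darkness, with 1 point per array, WS Agp 135° left of WS Agp 90°, lines at the group means and a dotted line at a signal of 32. The 7 genes on the left are higher at Agp 135° on all arrays, and the points of D2HGDH, BZIP53 and ETFQO overlap.

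Some stress-related genes were past the looser threshold. SIS, named for a serine-rich protein induced by salt, had signals of 586, 230 and 453 at WS Agp 135° and 175, 141 and 103 at WS Agp 90°, a log2 fold change of 1.35 ± 0.29 (limma adjusted p = 0.112). The groups did not overlap, and WS Agp 135° replicate 2 was the lowest tilted array. With 1 of the 6 arrays left out, the limma adjusted p of SIS ran from 0.0488, without that array, to 0.334. HIS1-3, a linker histone known from drought, had 530, 384 and 364 at WS Agp 135° and 276, 206 and 123 at WS Agp 90°, a log2 fold change of 1.01 ± 0.46 (limma adjusted p = 0.460). HIS1-3 had the highest value of the 6 named probe sets of the dehydration and abscisic acid list. The other 5, among them LEA4-5, COR47 and COR15A, lay between 0.02 and 0.29, and the list had a median of 0.14.

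The remaining named genes higher at the looser threshold have no known function given in the sources used here. The study describes AT5G66780 as raised in root tips by low pH and by salt. It also lists that gene as a skew gene candidate from these same roots. AT5G66780 had signals of 181, 119 and 277 at WS Agp 135° and 94.4, 76.5 and 29.5 at WS Agp 90°, a log2 fold change of 1.20 ± 0.31. AT1G21520 had 86.5, 71.1 and 115 at WS Agp 135° and 5.34, 35.2 and 7.52 at WS Agp 90°, a log2 fold change of 1.37 ± 0.24 (limma adjusted p = 0.0633). AT2G15960 had 869, 680 and 918 at WS Agp 135° and 621, 368 and 248 at WS Agp 90°, a log2 fold change of 1.03 ± 0.41. None of the 3 overlapped between groups. Just under that threshold were AT4G16000, AT2G05540 and AT5G62330, with log2 fold changes of 0.98 to 0.99, the last a pectin methylesterase inhibitor with 239, 239 and 228 at WS Agp 135° and 103, 144 and 71.6 at WS Agp 90°.

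On the lower side, the 2 named genes that fell were dim. AT1G67000 had signals of 8.11, 6.83 and 6.82 at WS Agp 135° and 37.0, 51.6 and 34.2 at WS Agp 90°. The groups did not overlap, and AT1G67000 fell with a log2 fold change of -0.90 ± 0.15 (limma adjusted p = 0.0404), but its tilted arrays lay below the pseudocount. AT4G28960, annotated as a pseudogene, had 2.62, 0.79 and 0.29 at WS Agp 135° and 17.5, 13.2 and 24.6 at WS Agp 90°, all under 32. It fell with a log2 fold change of -0.58 ± 0.10 (limma adjusted p = 0.0404). Leaving out any 1 of the 6 arrays ended both calls, at limma adjusted p-values of 0.0628 to 0.125 for AT1G67000 and 0.0583 to 0.180 for AT4G28960.

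The 4 named genes lower at the looser threshold did not pass the adjusted test. AT5G06730, a class III peroxidase, had signals of 162, 95.9 and 111 at WS Agp 135° and 306, 278 and 370 at WS Agp 90°, a log2 fold change of -1.23 ± 0.25 (limma adjusted p = 0.0860). AT5G44400, of the berberine bridge enzyme family of flavin-linked oxidases, had 861, 484 and 617 at WS Agp 135° and 1368, 1621 and 1547 at WS Agp 90°, a log2 fold change of -1.19 ± 0.23 (limma adjusted p = 0.0707). In both the tilted arrays were all below the upright ones, with replicate 2 the lowest of them.

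Neighbouring genes of the same family accompanied some of these. AT5G44390, beside AT5G44400 on the chromosome and of the same enzyme family, had signals of 86.8, 83.8 and 64.8 at WS Agp 135° and 120, 156 and 97.6 at WS Agp 90°, a log2 fold change of -0.54 ± 0.18. The other 12 berberine bridge enzyme probe sets all had an unadjusted p over 0.05, and the median of the 14 was 0.12. The chitinase family gene AT2G43590 had 322, 259 and 468 at WS Agp 135° and 555, 853 and 1011 at WS Agp 90°, a log2 fold change of -1.14 ± 0.30. Its neighbour AT2G43600 had 68.0, 11 and 35.6 at WS Agp 135° and 72.3, 97.9 and 97.1 at WS Agp 90°, a log2 fold change of -0.93 ± 0.21. For all 3 of these genes the groups did not overlap, but AT2G43590 and AT2G43600 were among the 15 largest decreases, which were chosen for no overlap. Probe sets of near-identical neighbours can bind each other's transcripts, and this was not tested.

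AT3G19430, annotated as related to late embryogenesis abundant proteins, had signals of 135, 129 and 211 at WS Agp 135° and 231, 463 and 359 at WS Agp 90°, a log2 fold change of -1.02 ± 0.26. AT1G50060, a pathogenesis-related protein, had 279, 257 and 477 at WS Agp 135° and 497, 868 and 600 at WS Agp 90°, a log2 fold change of -0.91 ± 0.23. AT5G17700, a transporter of the MATE family, had 251, 154 and 156 at WS Agp 135° and 387, 337 and 379 at WS Agp 90°, a log2 fold change of -0.91 ± 0.16 (limma adjusted p = 0.0576). All 3 had no overlap, which was a condition for a place among the 15 largest decreases and so is not independent evidence. AT5G17700 missed the threshold narrowly: without WS Agp 135° replicate 1 its limma adjusted p was 0.0315. AT4G12500 and AT4G12490, the 2 named probe sets of pEARLI1-like lipid transfer proteins, had log2 fold changes of -0.86 ± 0.22 and -0.69 ± 0.30 with no overlap.

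Of the 15 named genes with the largest decreases, 4 had a WS Agp 135° mean under a signal of 32, as AT1G36970 (11.0, 2.50 and 2.95 at WS Agp 135°, 32.3, 48.6 and 30.6 at WS Agp 90°) and AT2G30830 did. PRA1.G1, of a family of membrane trafficking proteins, had 22.4, 18.8 and 15.4 at WS Agp 135° and 50.8, 76.3 and 52.1 at WS Agp 90°, a log2 fold change of -0.90 ± 0.20. The brighter AT5G67390 had 112, 164 and 128 at WS Agp 135° and 240, 277 and 271 at WS Agp 90°, a log2 fold change of -0.86 ± 0.19, and AT1G49030 had one of -0.87 ± 0.28. The limma adjusted p of PRA1.G1, AT5G67390 and AT1G49030 was 0.121, 0.120 and 0.267. Of the 15 with the largest increases, 2 had a WS Agp 90° mean under 32. Both sets of 15 were drawn only from genes with no overlap, so that separation is not independent evidence.

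No named probe set of expansins, xyloglucan enzymes, microtubules or the SKU5 family, long tied to growth direction or wall loosening, passed the adjusted test. Named probe sets covered 18 of 34 listed expansin genes and 9 of 30 xyloglucan enzyme genes. They covered 12 of 32 microtubule genes and 4 of 19 SKU5 family genes, and the other listed genes have no value here. Expansins loosen walls, and their 18 probe sets had a median log2 fold change of -0.13, with 5 above 0 and 13 below. By an unadjusted p under 0.05, 3 of the 18 were lower and 1 was higher, where 5.46% of all probe sets were lower and 5.15% higher. The lowest was the expansin-like gene EXLA3, with signals of 122, 80.9 and 102 at WS Agp 135° and 203, 146 and 198 at WS Agp 90°, a log2 fold change of -0.73 ± 0.20 (limma adjusted p = 0.202). Its neighbour EXLA1 had a log2 fold change of -0.29 ± 0.13, also with no overlap, and EXPA20 had one of 0.25 ± 0.11 with overlap.

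Xyloglucan endotransglucosylase/hydrolases cut and rejoin wall xyloglucan, and their 9 probe sets had a median of -0.12. Of these, 3 were lower with an unadjusted p under 0.05 (5.46% of all probe sets) and 2 lay wholly below at WS Agp 135° (8.17% of all). XTH32 had signals of 873, 769 and 857 at WS Agp 135° and 1304, 1182 and 1040 at WS Agp 90°, a log2 fold change of -0.47 ± 0.11 (limma adjusted p = 0.125). XTH18 had 256, 284 and 458 at WS Agp 135° and 612, 643 and 542 at WS Agp 90°, a log2 fold change of -0.83 ± 0.27 (limma adjusted p = 0.267). Neither overlapped between groups. XTH33 had a log2 fold change of -0.58 ± 0.26 with overlap.

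The 12 probe sets of tubulins and microtubule-associated proteins had a median of -0.07, with 3 lower at an unadjusted p under 0.05 (5.46% of all probe sets) and 4 wholly below at WS Agp 135° (8.17% of all). SPR1, the SPIRAL1 protein whose loss twists growing roots, had signals of 5245, 4909 and 5047 at WS Agp 135° and 5719, 5248 and 6686 at WS Agp 90°. The groups were separated by a narrow margin, and the log2 fold change was -0.23 ± 0.08. SP1L2, a SPIRAL1-like gene, had 667, 334 and 500 at WS Agp 135° and 824, 679 and 916 at WS Agp 90°, a log2 fold change of -0.69 ± 0.25. TUB7, a beta-tubulin, had a log2 fold change of -0.18 ± 0.09. These 3 had an unadjusted p under 0.05, and their limma adjusted p was 0.333 to 0.461.

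SKU5, a cell surface protein whose loss makes roots skew, had signals of 4043, 3997 and 3931 at WS Agp 135° and 4015, 3854 and 4608 at WS Agp 90°. The groups overlapped, and the log2 fold change was -0.06 ± 0.07. Its relatives sks15 and sks16 had log2 fold changes of -0.80 ± 0.26 and -0.57 ± 0.27, and the arrays of sks15 did not overlap, at 146, 221 and 297 for WS Agp 135° and 315, 548 and 343 for WS Agp 90°.

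Hormone, touch and nutrient lists had 0 named probe sets past the adjusted test, and many of their genes had no named probe set. The 11 Aux/IAA and GH3 probe sets, repressors and conjugating enzymes of the auxin response, had a median of -0.04. IAA18, one of the repressors, had signals of 345, 262 and 330 at WS Agp 135° and 261, 226 and 233 at WS Agp 90°, a log2 fold change of 0.32 ± 0.11 with no overlap. The 5 touch-inducible genes had a median of 0.23, and STZ, a zinc finger repressor, had 219, 206 and 178 at WS Agp 135° and 145, 137 and 142 at WS Agp 90° (log2 fold change 0.41 ± 0.16). The calmodulin-like gene AT1G76640 of the same list was under 32 on all 6 arrays and had a log2 fold change of -0.48 ± 0.15.

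The 5 iron deficiency genes had a median of -0.22. AT3G13610, the F6′H1 hydroxylase that makes coumarins released by roots short of iron, had signals of 2496, 2415 and 2684 at WS Agp 135° and 3219, 3260 and 3256 at WS Agp 90°, a log2 fold change of -0.34 ± 0.11 with no overlap (limma adjusted p = 0.282). Among the 5 jacalin-related lectins, AT5G28520 had 525, 325 and 212 at WS Agp 135° and 217, 147 and 160 at WS Agp 90°, with overlap and a log2 fold change of 0.82 ± 0.27, and JAL33 had one of 0.45 ± 0.15. Of the 29 serine carboxypeptidase-like probe sets 8 were above 0 and 21 below, with a median of -0.09. scpl29, the brightest one named here, had 2347, 2025 and 2188 at WS Agp 135° and 2432, 2741 and 2868 at WS Agp 90° (log2 fold change -0.27 ± 0.09), and scpl30 was near background.

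**Figure D4:**
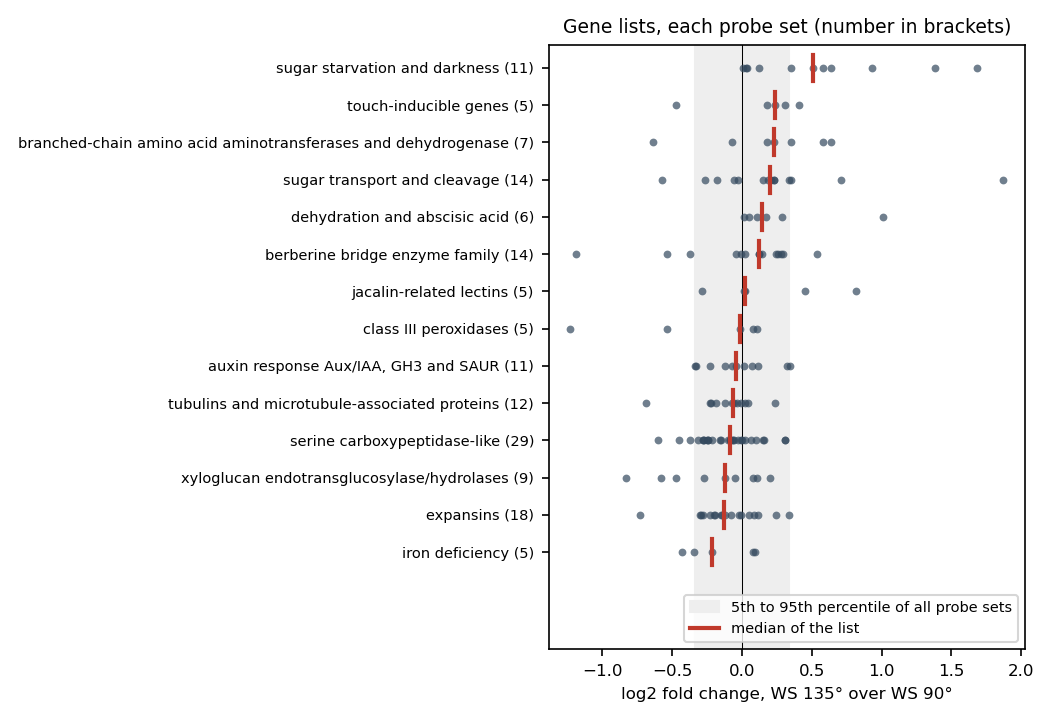
Log2 fold change, WS Agp 135° over WS Agp 90°, of each probe set in the gene lists with at least 5 named probe sets, other than lists the study drew from these roots, with the list's median as a vertical line and the 5th to 95th percentile of all probe sets (-0.34 to 0.34) shaded. Of the lists shown, the sugar starvation list has the highest median, 0.51, and the other medians lie from -0.22 to 0.23.

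Of the 40 genes that the study lists for this comparison, 16 had a named probe set here. In 17 probe sets, 14 were above 0 and 3 below, 3 rose and 0 fell by the adjusted test, and 12 lay wholly above in the WS Agp 135° arrays, where 8.09% of all probe sets did. Since the list was drawn from these same roots, its count is not independent evidence. Its other members included the basic helix-loop-helix gene AT4G25410, with signals of 138, 141 and 135 at WS Agp 135° and 50.5, 95.5 and 67.8 at WS Agp 90° (log2 fold change 0.73 ± 0.15, limma adjusted p = 0.0891). AT1G52820, of the 2-oxoglutarate-dependent oxygenase family, had a log2 fold change of -0.99 ± 0.45, and AT5G22555 one of -0.89 ± 0.34.

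Markers of other tissues and of root cell types were read on the same arrays. The summed signal of 3 photosynthesis probe sets, which would come from shoot tissue, was 2042, 1672 and 1827 at WS Agp 135° and 2008, 2467 and 1595 at WS Agp 90°. The 2 root hair probe sets summed to 853, 869 and 990 at WS Agp 135° and 841, 1058 and 1062 at WS Agp 90°, and the only cortex probe set was at 552, 626 and 512 at WS Agp 135° and 610, 684 and 558 at WS Agp 90°. These 3 sums overlapped between the groups. The 3 lateral root primordium probe sets summed to 529, 516 and 484 at WS Agp 135° and 449, 478 and 465 at WS Agp 90°, which did not overlap, with a median log2 fold change of 0.09. The only named shoot apex probe set was at 2.55, 4.49 and 8.93 at WS Agp 135° and 12, 15.6 and 15.9 at WS Agp 90°, all under the pseudocount. The part of tissue composition in the results was not tested.

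WS roots tilted backward (Agp 45°), which skew and wave, gave another contrast with the same upright arrays, so these values share their control samples with those above. There 224 probe sets (0.985%) had an adjusted p under 0.05, with 36 higher and 188 lower, against 7 and 5 at Agp 135°. The tilted groups were therefore also compared directly. At Agp 135° against Agp 45°, 81 probe sets (0.356%) passed limma's adjusted test, with 58 higher at Agp 135° and 23 lower, and 35 (0.154%) did so with a log2 fold change over 1 in size, with 25 higher and 10 lower. The 35 became 7 without WS Agp 135° replicate 1 and 17 without WS Agp 45° replicate 2.

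The 4 named genes that rose at Agp 135°, and AT5G66780, which did not pass that test, were higher at Agp 135° than in the backward-tilted roots. They had been chosen by high values on these same Agp 135° arrays. That choice favours a difference in this direction, so it is not independent evidence. AT3G28320 had signals of 528, 684 and 458 at Agp 135° and 117, 151 and 114 at Agp 45°, a log2 difference of 1.84 ± 0.25 (limma adjusted p = 0.00538). AT5G26260 had 691, 1003 and 822 at Agp 135° and 178, 251 and 200 at Agp 45°, a difference of 1.82 ± 0.21 (limma adjusted p = 0.00170). AT2G25150, AT1G15330 and AT5G66780 differed by 1.36 ± 0.15, 0.97 ± 0.16 and 1.93 ± 0.31 (limma adjusted p = 0.00170, 0.0165 and 0.0137). Against upright roots at Agp 45° these 5 genes had log2 fold changes of -0.30, -0.50, -0.32, 0.00 and -0.73, none of which passed the adjusted test.

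Another gene that differed between the tilts was AT1G14960, for a major latex protein, with 1782, 1843 and 1507 at Agp 135° and 594, 460 and 502 at Agp 45° (log2 difference 1.64 ± 0.21, limma adjusted p = 0.00353). Upright roots lay between, at 1100, 1118 and 810. EXLA3 was 1.12 ± 0.20 higher at Agp 135° than at Agp 45° (limma adjusted p = 0.0251), where its signals were 9.24, 42.9 and 41.5.

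On the other side, AT3G19430, AT1G50060, AT2G43600, AT5G60530 and AT1G52060 were lower at Agp 135° than at Agp 45°, with log2 differences of -1.62 ± 0.26, -1.58 ± 0.23, -1.42 ± 0.21, -1.39 ± 0.22 and -1.34 ± 0.23 (limma adjusted p = 0.0137, 0.00895, 0.00890, 0.0137 and 0.0210). AT3G19430, AT1G50060 and AT2G43600, and sks15 below, had been named for low values on these same Agp 135° arrays. Their differences in this direction are therefore not independent evidence. For AT1G50060 the signals were 279, 257 and 477 at Agp 135° and 909, 919 and 1304 at Agp 45°, with upright roots between them. The SKU5-similar gene sks15 was lower by -1.28 ± 0.26 (limma adjusted p = 0.0475), with 146, 221 and 297 at Agp 135° and 623, 515 and 515 at Agp 45°.

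Several genes did not differ detectably between the tilts. SWEET11 had 1844, 1344 and 2505 at Agp 45°, and the difference between Agp 135° and Agp 45° was -0.07 ± 0.58. XTH32 and XTH33 differed by 0.04 ± 0.11 and -0.00 ± 0.26. For the starvation list the median log2 fold change against upright roots was 0.51 at Agp 135° and 0.31 at Agp 45°, and 0 of its 11 probe sets differed between the tilts by the adjusted test.

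**Figure D5:**
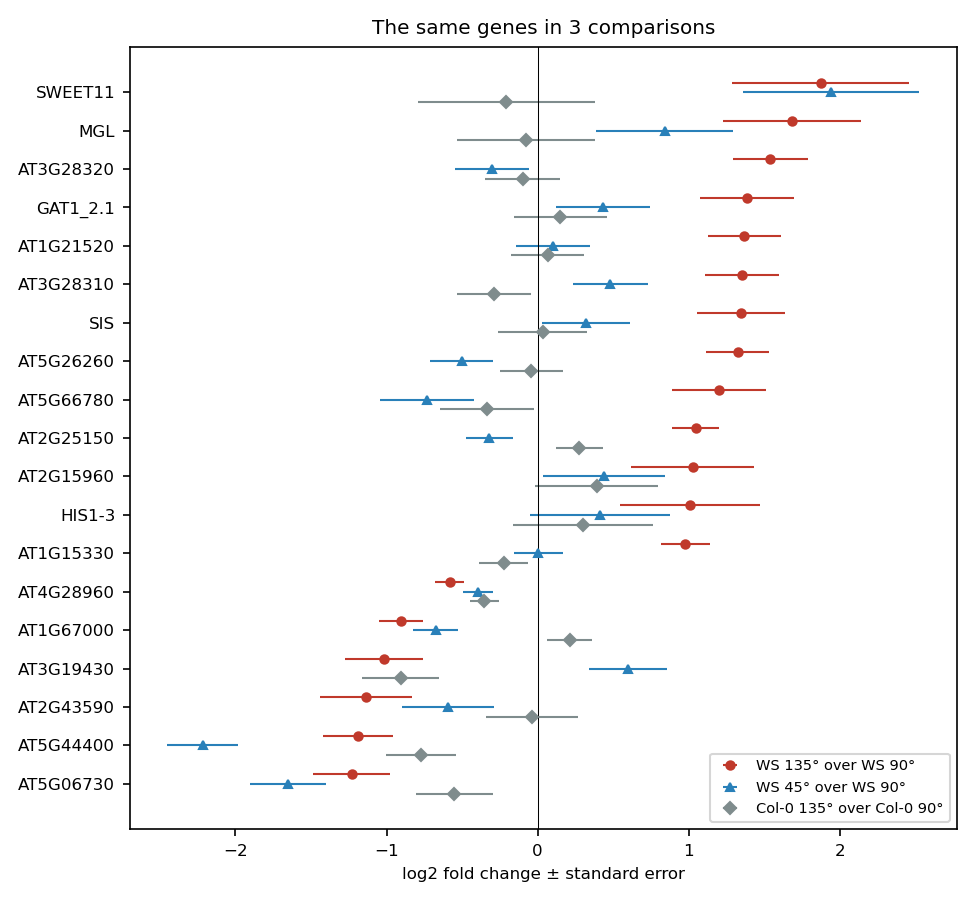
Log2 fold change with its standard error for the 19 named genes past either threshold in WS Agp 135° over WS Agp 90°, WS Agp 45° over WS Agp 90° and Col-0 Agp 135° over Col-0 Agp 90°. The first and second comparison share the 3 WS Agp 90° arrays, and AT3G28320, AT5G26260, AT2G25150 and AT5G66780 lie above 0 in the forward tilt and below 0 in the backward tilt of WS.

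In Col-0 the same forward tilt gave 0 probe sets with an adjusted p under 0.05 in limma's fit (0.0%), with the smallest at 0.616, while 1531 (6.73%) had an unadjusted p under 0.05. The interaction of ecotype and tilt, WS change less Col-0 change, likewise passed the adjusted test in 0 probe sets (0.0%). The smallest adjusted p was 0.379, and 1562 (6.87%) had an unadjusted p under 0.05. A different response of WS to the forward tilt is therefore not shown for any gene at this number of arrays.

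For several of the named genes the interaction was of the size of the WS change or larger. These genes had been chosen by their WS change, which is part of the interaction, so the size of these values is not independent evidence. AT3G28320 changed by -0.10 ± 0.25 in Col-0, and its interaction was 1.64 ± 0.35 (limma adjusted p = 0.381). Its Col-0 signals were mostly below 32, at 3.80, 46.3 and 20.9 at Agp 135° and 24.9, 31.5 and 17.8 at Agp 90°. AT5G26260 and AT1G15330 had interactions of 1.36 ± 0.29 and 1.20 ± 0.23, and AT1G67000 and AT5G67390 had interactions of -1.11 ± 0.21 and -1.40 ± 0.27. The limma adjusted p of these 5 interactions was 0.379 to 0.385. The Col-0 signals of AT1G67000 were 0.946 to 12.6, so for this gene and AT3G28320 a change in Col-0 could hardly be read. In contrast, AT3G19430, SP1L2 and sks15 had log2 fold changes in Col-0 of -0.91 ± 0.26, -0.85 ± 0.25 and -0.78 ± 0.26 beside the WS values of -1.02, -0.69 and -0.80, and interactions of -0.11 ± 0.36, 0.16 ± 0.35 and -0.02 ± 0.37.

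Single arrays recurred as the lowest of their group. Of the 28 probe sets higher at the looser threshold, WS Agp 135° replicate 2 was the lowest of its group in 18 and WS Agp 90° replicate 3, the array with the high actin ratio, was the lowest of its group in 18. Of the 11 lower ones, WS Agp 135° replicate 2 was the lowest in 9 and WS Agp 90° replicate 1 in 7. The part of single arrays or of RNA quality in these differences was not tested. Without the 2 arrays of the highest actin ratio, WS Agp 90° replicate 3 and Col-0 Agp 90° replicate 2, 0 probe sets passed the adjusted test.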

How the data were processed

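The authors deposited MAS5 signal intensities on a linear scale, made with Affymetrix Expression Console (versions not given in the sources used here). The trimmed mean of every array (2% at each end) was 500.04 or close to it, so the signals were already scaled between arrays. A pseudocount of 32 was added before log2, the 18 arrays were quantile normalized, and 64 of the 22810 probe sets, which are controls, were left out, leaving 22746. Group means of the 6 groups were fitted in limma 3.58.1 under R 4.3.3 (12 residual and 3.45 prior degrees of freedom), with two-sided p-values adjusted by the Benjamini-Hochberg method. The looser threshold is that of the study's methods, which applied it to RMA values not computed here. The script was tested on simulated data.

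Replicate numbers were checked and did not pair the arrays: same-numbered WS Agp 135° and Agp 90° arrays had residual correlations of -0.00831, -0.00285 and -0.00112. Genes came from the platform's annotation: 13513 probe sets had 1 gene, 503 several and 8730 none, and 13436 were matched to RefSeq by gene identifier. Lists with no named probe set (gibberellin-regulated, jasmonate, phosphate starvation, myo-inositol oxygenase, carbonic anhydrase, and markers of non-hair epidermis, endodermis, xylem, phloem, root cap and dividing cells) have no value here. Named genes are those past a threshold in WS Agp 135° against Agp 90°, the 15 largest rises and falls with no overlap, those the study lists, the 4 members of each list with the smallest p, and the 5 largest differences each way between Agp 135° and Agp 45°; LEA4-5, COR15A, BZIP53, D2HGDH and ETFQO, and the differences given between tilts or ecotypes for other genes, were chosen after their values were seen. The members and lists were chosen with earlier results of these data known. No genome positions or sequences are given, since no build is named for the files.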

Additional observations from a re-analysis of the deposited data

How the results depend on the processing

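The 39 probe sets at the looser threshold became 490 with a pseudocount of 1 (247 higher and 243 lower, or 50.4% higher against 71.8%), 15 with a pseudocount of 100, 25 without the 40% dimmest probe sets, and 29 to 64 with 1 array left out. The 6 with an adjusted p under 0.05 and a log2 fold change over 1 became 0 with a pseudocount of 1, 14 with an intensity trend in the variance, 0 with only the groups being compared fitted, 0 without the 2 arrays of the highest actin ratio, and 0 to 3 with 1 array left out. The 12 at any fold change (7 higher and 5 lower) became 0, 46 (19 and 27), 0 and 0 in those same settings, 33 with a pseudocount of 100 (15 and 18), 34 without the dimmest probe sets (11 and 23), and 0 to 7 with 1 array left out. For Agp 135° against Agp 45° the 35 became 19 with a pseudocount of 1, 15 with one of 100, 22 without the dimmest probe sets, 9 with only the compared groups, and 7 to 35 with 1 array left out. The 0 of the interaction became 2 without the 2 arrays of the highest actin ratio. Without quantile normalization none of these counts moved by over 1.5 times, and the median log2 fold change of all probe sets was then 0.0136, against -0.00123 with it. The causes were not tested.

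With the replicate number as a block the counts were 38, 5, 12, 28 and 0. The arrays share only a number, and the block ended the calls of AT5G26260, AT1G15330, AT4G28960 and AT1G67000 and made 1 other named gene pass. All 6 named calls were also lost with a pseudocount of 1, with only the compared groups and without the 2 arrays of the highest actin ratio. Over the 71 genes named in the text, 884 of 969 alternatives kept direction and side of the threshold, 60 lost the call, 17 gained it and 8 reversed. The reversals were of values near 0: with 1 array left out BZIP53 lay from -0.0166 to 0.0832, D2HGDH from -0.0384 to 0.138 and ETFQO from -0.0724 to 0.158, and D2HGDH was at -0.0247 without the 2 arrays of the highest actin ratio. The median of the starvation list lay between 0.44 and 0.55 in all alternatives, while those of the auxin response and peroxidase lists took both signs. With 3 arrays a group, and 36.9% of probe sets at a mean signal under 100, differences of dim probe sets were limited in precision.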
